A study of Homo sapiens with 6 samples.

Results

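The transcripts described here encode the 5 NF-κB subunits (NFKB1, NFKB2, REL, RELA and RELB) and 5 members of the IκB family of inhibitors and cofactors (NFKBIA, NFKBIB, NFKBIE, NFKBIZ and BCL3). These 10 genes were chosen by family name, without a threshold on any measured value, from 23459 rows of a gene count table. The choice was made with earlier results of these data known. All 10 had a row, and all 10 were among the 12010 genes that passed the filter on low counts. The cells were Raji, an established Burkitt's lymphoma line derived from a germinal centre B cell. One group carried a lentiviral short hairpin RNA (shRNA) named OBF1sh1, directed against OBF1 (gene POU2AF1), and the other carried the non-target shRNA SHC002; both had gone through lentiviral infection for 5 days and puromycin selection at 3 μg/ml for 7 days. Each group had 3 libraries of stranded mRNA sequencing, and the OBF1 knockdown rests on a single hairpin sequence.

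The libraries held 29569281 to 32612429 gene counts, with Spearman correlations of 0.999 within groups and 0.968 to 0.972 between them. Whether replicates were grown as separate cultures is not stated in the labels; p-values therefore reflect only how much these 6 libraries vary, and that variation may be technical. POU2AF1, which encodes the B cell coactivator OBF1, averaged 242 ± 1.66 CPM (counts scaled to a common library size with TMM factors) in OBF1 shRNA libraries and 514 ± 2.15 CPM in control shRNA libraries (SD, n = 3 each), a fall of 1.09 on the log2 scale (SE 0.02, edgeR adjusted p = 1.25e-17). All 10 listed B cell markers, CD22 and PAX5 among them, were expressed in both groups. By the edgeR test 9 rose and CD79B fell, where 37.5% of all tested genes rose. Their sum was 10916 to 11079 CPM in OBF1 shRNA and 5084 to 5319 CPM in control shRNA libraries. Most of that sum was CD74 (means of 6674 CPM in OBF1 shRNA and 2623 CPM in control shRNA libraries) and MS4A1 (2078 and 702 CPM). The middle log2 fold change among the 10 markers was smaller, at 0.51, beside -0.01 over all tested genes. Of the 10 markers, 3 were at least 2-fold higher, against 6.59% of all tested genes. Of the other cell types, the 10 myeloid markers summed to 3.24 to 3.64 CPM in OBF1 shRNA and 3.81 to 3.90 CPM in control shRNA libraries, with MPO and S100A9 at 0, and the 5 epithelial markers to at most 0.191 CPM in OBF1 shRNA and 0.254 CPM in control shRNA libraries, with KRT18 and KRT19 at 0. The 10 markers of T and NK cells summed to 0.844 to 0.926 CPM in OBF1 shRNA and 0.0960 to 0.222 CPM in control shRNA libraries, with CD3D, CD2, GNLY and GZMB at 0 and NKG7 alone passing the filter, through the OBF1 shRNA libraries only. Among 7 genes listed as signs of handling, 5 were tested. Of these, JUN rose and the heat shock genes HSPA1B and DNAJB1 and the early response gene FOSB fell. Over all tested genes 37.5% rose and 37.9% fell. The 7 summed to 264 to 274 CPM in OBF1 shRNA and 648 to 656 CPM in control shRNA libraries, and the part of handling and of the marker genes in the results below was not tested.

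NF-κB factors are dimers of Rel-homology proteins that bind κB sites in DNA. In the canonical arm, receptor signals activate the IKK kinases, which mark IκB proteins for destruction and free dimers of p50 (made from the NFKB1 precursor p105) with RELA or c-Rel (REL). In the alternative arm, the kinase NIK (MAP3K14) accumulates and drives the processing of p100, the NFKB2 product, to p52, which pairs with RELB. Several genes of the system are themselves known NF-κB targets, NFKBIA being the textbook case of negative feedback. In B cells the canonical arm follows antigen receptor and CD40 signals, and the alternative arm follows CD40 and BAFF receptor signals. Processing of p105 and p100 and release from IκB take place on proteins and are not seen in mRNA counts.

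The κB sites beside the family's own start sites are shown because several of these genes are known to be controlled through them. RefSeq promoter windows of build GRCh38.p14, each of 300 bases around an annotated start, matched 8 of the 10 members, all but RELB and NFKBIE, and gave 14 windows. The κB consensus, searched on both strands, matched 9 of the 14 windows and at least 1 window of 7 of the 8 members, against 5.91% of all 35116 windows in the table. The looser core GGGNNNNNCC, also searched on both strands, was in all 14 windows but also in 58.7% of all windows, and every consensus match is contained in a core match. The octamer ATGCAAAT, the motif that Oct factors bind, was in 0 of the 14 windows and in 1.77% of all. Windows of 1 gene lie close together and are not independent, and the members' windows ranged from 51.3% to 80.0% GC. Stretches of 30 bases around 8 of the 11 matches follow, at least 1 for each of the 7 members that had one, read 5′ to 3′ on the gene's strand, with the consensus match (or overlapping matches) in capitals.
NFKB1, 49 bases before the first listed start, chr4:102501300-102501329, + strand: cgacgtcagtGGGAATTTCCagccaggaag
NFKB2, 107 bases before the second listed start, chr10:102394462-102394491, + strand: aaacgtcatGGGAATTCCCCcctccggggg
NFKB2, 21 bases before the third listed start, chr10:102395674-102395703, + strand: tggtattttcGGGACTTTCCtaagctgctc
REL, 47 bases before the start, chr2:60881518-60881547, + strand: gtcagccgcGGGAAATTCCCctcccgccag
NFKBIA, 81 bases before the start, chr14:35404811-35404840, - strand: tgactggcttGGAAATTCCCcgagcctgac
NFKBIB, 28 bases before the second listed start, chr19:38899932-38899961, + strand: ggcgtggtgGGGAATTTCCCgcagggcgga
NFKBIZ, 223 bases before the first listed start, chr3:101827757-101827786, + strand: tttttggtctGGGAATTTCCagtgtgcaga
BCL3, just after the start, chr19:44748700-44748729, + strand: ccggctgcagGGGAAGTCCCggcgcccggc
Neither window of RELA held the consensus. The 10 capital letters are the same in the NFKB1 and NFKBIZ sites, and the NFKBIB site holds them within its longer match. A match is a string of letters and shows no binding.

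Of the 10 members, 8 rose and 2 fell in OBF1 shRNA cells, by the quasi-likelihood test of edgeR at 0.05 after Benjamini-Hochberg adjustment over every tested gene. The background is high: 75.4% of all tested genes were called, 37.5% as higher and 37.9% as lower, so a call by itself sets a member apart from few other genes. Among all called genes 49.8% were higher, and 37.6% with library sizes alone, a scaling that moved the log2 fold changes by -0.11 at the median; the members stayed at 8 higher and 2 lower. At least 2-fold higher were 4 members, NFKB1, NFKB2, NFKBIA and NFKBIE, against 6.59% of all tested genes. NFKB1 was close to that limit: with library sizes alone its log2 fold change was 0.93, under 2-fold. The values of the groups did not overlap for any of the 10 members, as for 76.6% of tested genes. The median log2 fold change over the 10 members was 0.76, beside -0.01 over all tested genes. In these bulk libraries a change in RNA per cell and a change in the share of cells that express a gene cannot be told apart.

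**Figure D1:**
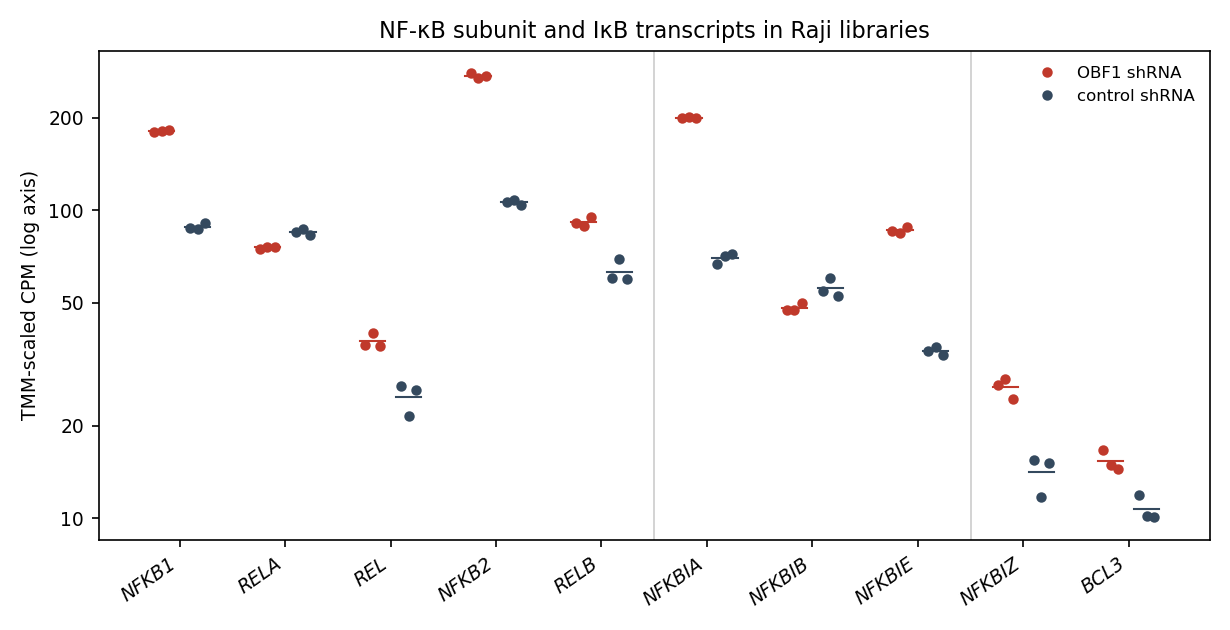
TMM-scaled CPM (log axis) of each member in every library, OBF1 shRNA in red on the left of each pair and control shRNA in dark blue on the right; points are libraries and short lines are means. Subunits, cytoplasmic inhibitors and nuclear IκB proteins are separated by grey lines, and RELA and NFKBIB are the members with the lower values in OBF1 shRNA libraries.

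The canonical subunits did not move together. NFKB1, whose p105 product both yields p50 and acts as an inhibitor, was at 179, 181 and 183 CPM in OBF1 shRNA replicates 1 to 3, against 87.3, 86.8 and 90.9 CPM in control shRNA replicates 1 to 3. All OBF1 shRNA libraries lay close together and far above the control shRNA libraries, a 2.05-fold rise (log2 fold change 1.03, SE 0.03, edgeR adjusted p = 5.85e-16). RELA, the main transactivating subunit of the canonical arm, was at 75.1, 75.8 and 76.2 CPM in OBF1 shRNA libraries, against 85.0, 87.0 and 83.3 CPM in control shRNA libraries. It fell by 0.17 on the log2 scale (SE 0.03, edgeR adjusted p = 0.000144), a small step without overlap, and by 0.28 with library sizes alone. REL, encoding the lymphoid transactivator c-Rel, was at 36.5, 40.1 and 36.1 CPM in OBF1 shRNA libraries, against 26.8, 21.5 and 26.1 CPM in control shRNA libraries. The gain of REL was 1.52-fold (log2 fold change 0.60, SE 0.07, edgeR adjusted p = 2.22e-07), and control shRNA replicate 2 was the lowest library; without that library the log2 fold change was 0.51. GENCODE release 29, on GRCh38 and not the submitters' build, places another gene, AC010733.2, on the same strand over 5702 of the 13170 annotated exon bases of REL, and how reads there were counted is not given in the sources used here.

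Both subunits of the alternative arm rose. NFKB2 had the highest CPM of the family, at 279, 268 and 273 in OBF1 shRNA libraries against 107, 108 and 104 in control shRNA libraries. The 2 groups were far apart relative to their spread, with a 2.58-fold rise (log2 fold change 1.37, SE 0.03, edgeR adjusted p = 5.16e-18). RELB, the partner of p52, was at 90.6, 88.7 and 95.3 CPM in OBF1 shRNA libraries, against 60.4, 69.4 and 60.0 CPM in control shRNA libraries. Its rise was 1.45-fold (log2 fold change 0.53, SE 0.05, edgeR adjusted p = 1.15e-08); control shRNA replicate 2 was the highest control, and without it the log2 fold change was 0.61.

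Set against each other within each library, NFKB2 stood higher against NFKB1, and RELB against RELA, in OBF1 shRNA libraries. Per kilobase of gene length, NFKB2 stood to NFKB1 at 2.10, 2.00 and 2.02 in OBF1 shRNA libraries, against 1.65, 1.68 and 1.54 in control shRNA libraries, a log2 difference of 0.33 (SE 0.04). The ratio of RELB to RELA was 1.78, 1.73 and 1.85 in OBF1 shRNA libraries, against 1.05, 1.18 and 1.06 in control shRNA libraries, a log2 difference of 0.70 (SE 0.06). REL, although canonical, also stood higher against RELA, with ratios of 0.631, 0.686 and 0.615 in OBF1 shRNA libraries against 0.410, 0.320 and 0.407 in control shRNA libraries (log2 difference 0.77, SE 0.13). None of these ratios overlapped between the groups. Each gave p = 0.10 in a two-sided exact permutation test over the 6 libraries, as did the 2 ratios given below, and 0.10 is the smallest value that 3 libraries against 3 allow. RELA was the single subunit gene that fell, and it stood lower against both other transactivator genes. RELB was compared with RELA only. Its 1.45-fold rise was no larger than the 1.52-fold rise of REL and the 2.05-fold rise of NFKB1.

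As shares of the 5 subunits' summed CPM per kilobase, RELA held 12.4% ± 0.114 in OBF1 shRNA libraries and 23.7% ± 0.133 in control shRNA libraries (SD, n = 3 each). NFKB2 held 38.7% ± 0.660 in OBF1 shRNA and 25.6% ± 0.245 in control shRNA libraries. The precursor genes NFKB1 and NFKB2 together made up 57.6% ± 0.491 in OBF1 shRNA and 41.3% ± 0.601 in control shRNA libraries, and the transactivator genes RELA, REL and RELB the remainder. Divided by arm, NFKB2 with RELB held 60.7% ± 0.793 in OBF1 shRNA and 51.6% ± 1.65 in control shRNA libraries, a smaller difference than that between precursor and transactivator genes (no test of the shares was made). RELB itself held 22.1% ± 0.641 in OBF1 shRNA and 26.0% ± 1.71 in control shRNA libraries, a smaller share of a larger sum, since the 5 subunits together came to 182 ± 1.48 CPM per kilobase in OBF1 shRNA and 107 ± 1.91 in control shRNA libraries. These shares are of mRNA and say nothing of dimers.

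**Figure D2:**
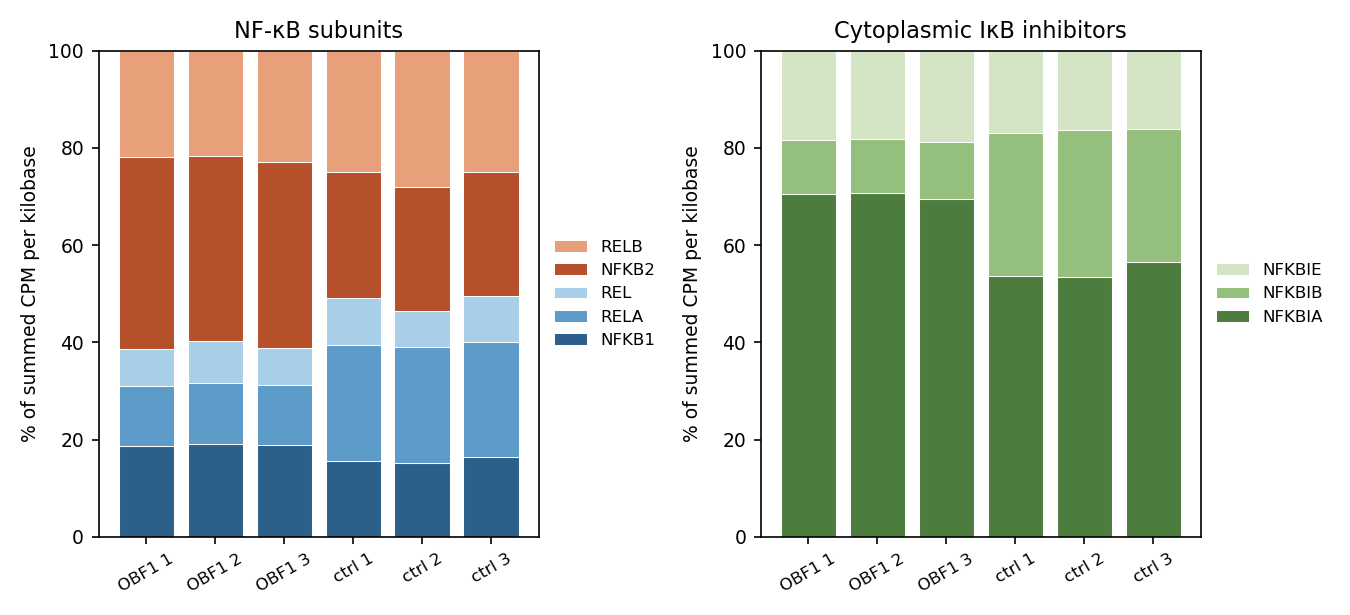
Share of the summed CPM per kilobase held by each NF-κB subunit (left; canonical members in blue, alternative members in orange) and by each cytoplasmic IκB inhibitor (right), one bar per library, with the OBF1 shRNA libraries left of the control shRNA libraries. RELA holds 12.4% in OBF1 shRNA and 23.7% in control shRNA libraries, and NFKBIA 70.3% in OBF1 shRNA and 54.6% in control shRNA libraries.

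Among the cytoplasmic inhibitors, which hold NF-κB dimers out of the nucleus, IκBα and IκBε transcripts rose and IκBβ fell. NFKBIA, the fast feedback inhibitor IκBα, was at 199, 201 and 199 CPM in OBF1 shRNA libraries, against 66.9, 71.2 and 72.2 CPM in control shRNA libraries. This was the largest fold change of the 10 members, 2.85-fold (log2 fold change 1.51, SE 0.03, edgeR adjusted p = 7.11e-18). NFKBIE, encoding IκBε, which is prominent in B cells, was at 85.3, 84.5 and 88.5 CPM in OBF1 shRNA libraries, against 34.8, 35.9 and 33.9 CPM in control shRNA libraries. Its 2.47-fold rise (log2 fold change 1.30, SE 0.04, edgeR adjusted p = 1.01e-15) was smaller than that of NFKBIA: the ratio of NFKBIE to NFKBIA was lower in OBF1 shRNA libraries by 0.21 on the log2 scale (SE 0.05), without overlap. NFKBIB, encoding IκBβ, was at 47.3, 47.5 and 50.0 CPM in OBF1 shRNA libraries, against 54.6, 60.2 and 52.5 CPM in control shRNA libraries. It fell by 0.21 on the log2 scale (SE 0.05, edgeR adjusted p = 0.000683), by 0.32 with library sizes alone and by 0.15 without control shRNA replicate 2, the highest library. In GENCODE release 29, 40 exon bases of NFKBIB are shared with SIRT2 on the opposite strand.

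As a sum, the 3 cytoplasmic inhibitor transcripts were more abundant relative to subunit transcripts in the OBF1 shRNA libraries. Most of that sum was NFKBIA, and NFKBIB went the other way. Per kilobase, NFKBIB was at 20.6 ± 0.638 CPM in OBF1 shRNA and 23.8 ± 1.68 CPM in control shRNA libraries. Summed per kilobase, NFKBIA, NFKBIB and NFKBIE came to 181 ± 1.24 CPM in OBF1 shRNA and 82.0 ± 2.77 CPM in control shRNA libraries (SD, n = 3 each). Divided by the sum of the 5 subunits, this gave 0.997 ± 0.00652 in OBF1 shRNA and 0.768 ± 0.0174 in control shRNA libraries, with 0.991 as the lowest OBF1 shRNA library and 0.781 as the highest control shRNA library. Within the inhibitor sum NFKBIA held 70.3% ± 0.606 in OBF1 shRNA and 54.6% ± 1.68 in control shRNA libraries, while NFKBIB held 11.3% ± 0.277 in OBF1 shRNA and 29.0% ± 1.41 in control shRNA libraries. The precursors p105 and p100, which also act as inhibitors, are counted here among the subunits.

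The nuclear IκB proteins, cofactors that bind p50 or p52 dimers on DNA, were the least abundant members and both rose. NFKBIZ, encoding IκBζ, was at 27.1, 28.3 and 24.5 CPM in OBF1 shRNA libraries, against 15.5, 11.7 and 15.1 CPM in control shRNA libraries. The rise was 1.89-fold (log2 fold change 0.92, SE 0.08, edgeR adjusted p = 1.09e-08), and 0.80 on the log2 scale without control shRNA replicate 2, the lowest library. BCL3, first known from a translocation in B cell leukaemia, was at 16.7, 14.9 and 14.5 CPM in OBF1 shRNA libraries, against 11.9, 10.1 and 10.1 CPM in control shRNA libraries. Its 1.43-fold rise (log2 fold change 0.52, SE 0.08, edgeR adjusted p = 9.38e-06) left a narrow gap between the groups. The ratio of BCL3 to NFKBIZ was lower in OBF1 shRNA libraries by 0.40 on the log2 scale (SE 0.13), at 1.30 ± 0.104 in OBF1 shRNA and 1.73 ± 0.223 in control shRNA libraries, without overlap.

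**Figure D3:**
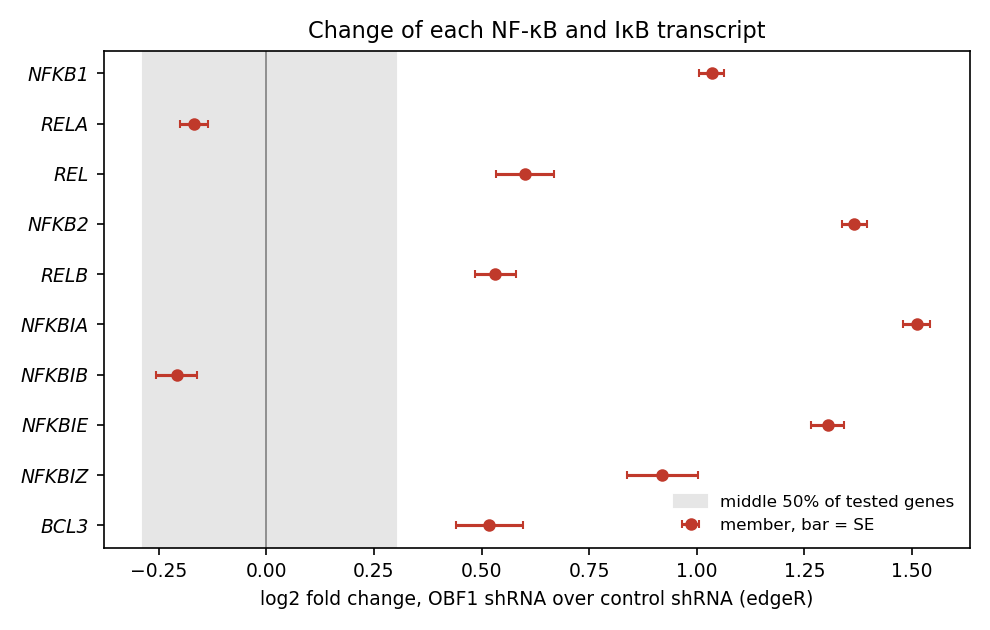
Log2 fold change of each member, OBF1 shRNA over control shRNA, from the edgeR fit, with bars of 1 SE; the grey band spans the middle 50% of all tested genes, from -0.29 to 0.30. RELA at -0.17 and NFKBIB at -0.21 lie inside the band, and the 8 members that rose lie to its right, from BCL3 at 0.52 to NFKBIA at 1.51.

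Levels can be compared between genes only per length, and on that scale NFKBIA led in both groups, at 128 ± 0.585 CPM per kilobase in OBF1 shRNA and 44.7 ± 1.80 in control shRNA libraries. In OBF1 shRNA libraries NFKB2 (70.3 ± 1.36), RELB (40.2 ± 1.48), NFKB1 (34.5 ± 0.330), NFKBIE (33.4 ± 0.805), RELA (22.5 ± 0.172), NFKBIB (20.6 ± 0.638), REL (14.5 ± 0.846), BCL3 (8.23 ± 0.630) and NFKBIZ (6.34 ± 0.466) followed in that order. Among neighbours in that order, the ranges of NFKB1 and NFKBIE overlapped and all others were separate. In control shRNA libraries the order after NFKBIA was RELB (27.8 ± 2.32), NFKB2 (27.3 ± 0.544), RELA (25.3 ± 0.557), NFKBIB (23.8 ± 1.68), NFKB1 (16.8 ± 0.428), NFKBIE (13.5 ± 0.393), REL (9.57 ± 1.13), BCL3 (5.74 ± 0.559) and NFKBIZ (3.36 ± 0.492). There RELB and NFKB2 overlapped, as did RELA and NFKBIB. RELA and NFKBIB thus stood above NFKB1 and NFKBIE in control shRNA libraries and below them in OBF1 shRNA libraries, while the 3 scarcest members, REL, BCL3 and NFKBIZ, kept their places.

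Upstream in the canonical arm, the 20 listed activators, all tested, were 10 higher, 8 lower and 2 not called, with a median log2 fold change of 0.09. This is near the division of all tested genes, of which 37.5% were higher and 37.9% lower. MYD88, the adaptor of Toll-like receptors, was at 131 ± 2.03 CPM in OBF1 shRNA and 72.2 ± 2.43 CPM in control shRNA libraries, a 1.81-fold rise (edgeR adjusted p = 4.87e-14). PRKCB, a protein kinase C that acts downstream of the B cell receptor, rose 1.49-fold, and MALT1, a protease of the same signalling route, rose 1.75-fold, at 106 ± 4.71 CPM in OBF1 shRNA and 60.5 ± 3.00 CPM in control shRNA libraries. MAP3K8, the kinase that p105 binds and restrains, was 2.01-fold higher, and TAB2 and TRAF6, which act on the TAK1 kinase, fell by 0.35 and 0.32 on the log2 scale. The choice of MAP3K8, TAB2 and TRAF6 followed a look at their values.

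In the alternative arm, the receptor genes CD40, TNFRSF13C and TNFRSF13B and the gene of the kinase NIK rose. The genes of the complex that degrades NIK were divided: TRAF2, TRAF3 and BIRC2 fell, and BIRC3 rose slightly. Of 11 listed genes 10 were tested, with 6 higher, 3 lower and 1 (TNFRSF8) not called. Over all tested genes 37.5% were higher and 37.9% lower. The median log2 fold change of the list was 0.53, beside -0.01 over all tested genes. TNFRSF13B, TNFRSF8 and LTBR were named after their values were seen. The receptor CD40 was at 302 ± 5.52 CPM in OBF1 shRNA and 76.7 ± 1.17 CPM in control shRNA libraries, a 3.94-fold rise (edgeR adjusted p = 3.62e-20). MAP3K14, encoding NIK, was at 71.6, 69.7 and 72.2 CPM in OBF1 shRNA libraries, against 36.5, 36.5 and 35.6 CPM in control shRNA libraries, a 1.97-fold rise (edgeR adjusted p = 5.32e-14). TNFRSF13C, encoding the BAFF receptor and picked after its values were known, was at 11.3 ± 0.107 CPM in OBF1 shRNA and 3.97 ± 0.0873 CPM in control shRNA libraries. TRAF2, the adaptor that brings cIAP ligases to NIK, fell by 0.77 on the log2 scale (SE 0.03, edgeR adjusted p = 6.20e-13), to 56.5 ± 1.28 CPM in OBF1 shRNA against 96.3 ± 2.39 CPM in control shRNA libraries. The other lower genes, named after their values were seen, belong to the same complex: TRAF3 fell by 0.16 and the cIAP1 gene BIRC2 by 0.36. BIRC3, encoding cIAP2 and likewise named afterwards, rose 1.12-fold. Its level was 1215 ± 16.8 CPM in OBF1 shRNA and 1089 ± 17.7 CPM in control shRNA libraries. With library sizes alone BIRC3 was not called (edgeR adjusted p = 0.0599). BIRC2 was at 40.4 ± 0.935 CPM in OBF1 shRNA and 52.0 ± 1.51 CPM in control shRNA libraries. CHUK, an IKK kinase gene named afterwards and also among the listed canonical activators, rose 1.17-fold. LTBR, the lymphotoxin β receptor, had 0 counts in all libraries, which at 3 counts allows a level of up to 0.106 CPM (counting error only).

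Of 13 listed genes that limit NF-κB signalling, 12 were tested, 9 rose and 3 fell, against 37.5% higher and 37.9% lower over all tested genes. Their median log2 fold change was 0.95, and 6 of the 12 tested were at least 2-fold higher, against 6.59% of all tested genes. This list too was chosen with earlier results of these data known, so the shares only describe it. TNFAIP3, the ubiquitin-editing enzyme A20, was at 320.0, 325 and 322 CPM in OBF1 shRNA libraries, against 27.6, 27.9 and 27.2 CPM in control shRNA libraries. At 11.7-fold (log2 fold change 3.55, SE 0.03, edgeR adjusted p = 6.11e-23) its rise exceeded that of every IκB gene. Its binding partners TNIP2 and TNIP1 rose 3.31-fold and 2.16-fold. The deubiquitinase OTUD7B, known as Cezanne and named after its values were seen, fell to 2.67 ± 0.732 CPM in OBF1 shRNA, against 6.36 ± 0.186 CPM in control shRNA libraries, and NKIRAS2 and N4BP1, likewise named afterwards, were the others that fell.

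For the machinery that destroys phosphorylated IκB the changes were small. Of 8 listed genes, all tested, 2 rose, 3 fell and 3 were not called, with a median log2 fold change of -0.04, and none changed by as much as 2-fold; over all tested genes 75.4% were called. FBXW11, one of the 3 lower and named after its values were seen, was at -0.09 (edgeR adjusted p = 0.0233), while DESeq2 did not call it (adjusted p = 0.0618). NEDD8, the modifier that switches on cullin ligases, and RBX1, their RING subunit, each rose 1.24-fold. BTRC, the βTrCP receptor that recognises phosphorylated IκB, fell by 0.38 on the log2 scale (SE 0.04, edgeR adjusted p = 1.65e-07), to 33.9 ± 1.07 CPM in OBF1 shRNA against 44.1 ± 0.734 CPM in control shRNA libraries. The count of lower genes became 5 with library sizes alone.

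Known NF-κB target genes outside the family had the widest changes. Of 32 listed, 27 were tested, but CCL3, CCL4, CCL5 and IL2RA passed the filter on low counts only through the OBF1 shRNA libraries, with means of at most 0.229 CPM in control shRNA libraries, and so had to come out higher. Of the other 23, 22 rose and 1 fell, against 37.5% and 37.9% of all tested genes. Of these 23, 16 were at least 2-fold higher, against 6.59%, and the median log2 fold change of the 23 was 2.32. The list was chosen with earlier results of these data known, so these shares only describe it. It also overlaps the lists above: CD40 and BIRC3 are in the alternative arm list too, and TNFAIP3 among the genes that limit signalling. Each is counted in both, so the lists are not separate observations. IRF1, at 0.09 on the log2 scale, is among the 22, and its call depended on the setting. CXCL8, IL6, TNFAIP2, SDC4 and PLAU did not pass the filter. The chemokine gene CCL22 was at 444, 442 and 445 CPM in OBF1 shRNA libraries, against 8.16, 9.17 and 8.51 CPM in control shRNA libraries (edgeR adjusted p = 2.19e-24), and the adaptor gene TRAF1 rose 17.9-fold. TNFAIP3, given above, had the next smallest p-value. The listed gene that fell, SOD2, the mitochondrial superoxide dismutase, was named after its values were seen; it was at 82.1 ± 0.857 CPM in OBF1 shRNA and 98.0 ± 2.21 CPM in control shRNA libraries. The changes of the subunit and inhibitor genes, at most 2.85-fold, were thus well below those of many listed targets, a comparison of sizes with no test.

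**Figure D4:**
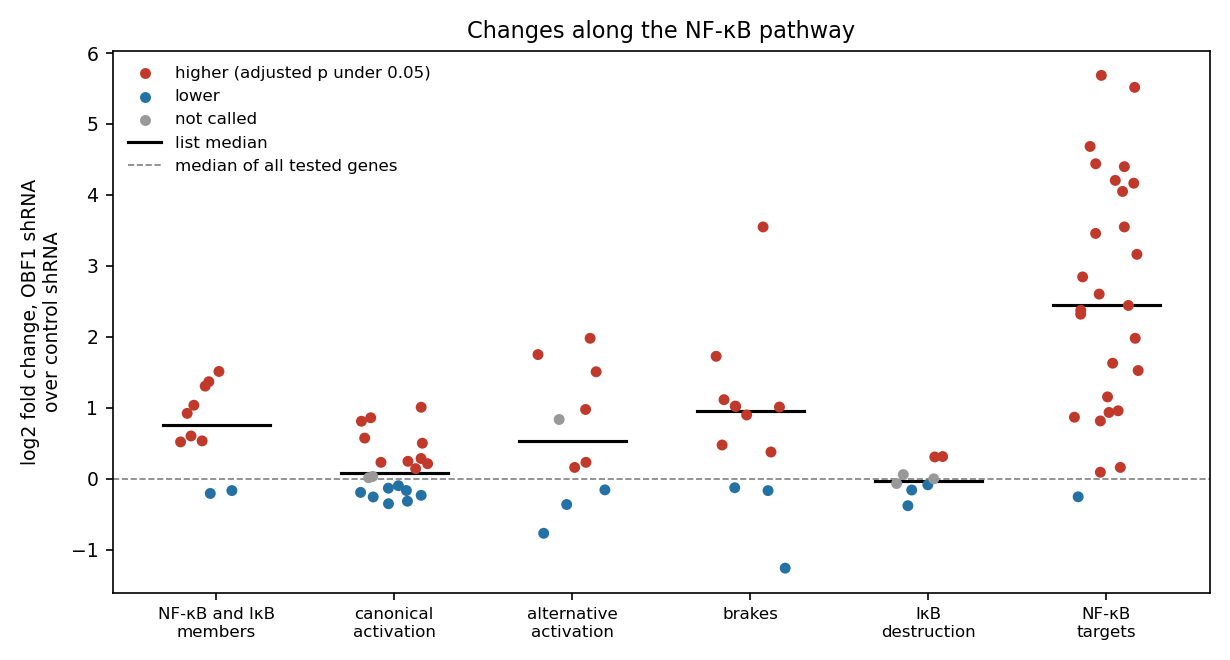
Log2 fold change, OBF1 shRNA over control shRNA, of every tested gene of the NF-κB family and of 5 pathway lists; red points were called higher, blue points lower and grey points were not called, black lines are list medians and the dashed line is the median of all tested genes. The medians run from -0.04 for IκB destruction to 2.44 for the 27 tested targets (2.32 without the 4 that passed the filter only through OBF1 shRNA libraries), with 0.76 for the family.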

How the data were processed

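The authors deposited 1 table of raw read counts per gene and a column of gene lengths, per the file headers. Builds hg19 and mm9 are named in the submitters' processing notes; aligner, counting tool and strand setting were not given in the sources read. All 6 count columns were used, matched to samples by name; unused columns of per-sample values numbered 0. Gene identifiers were matched to RefSeq symbols (GRCh38.p14; 23308 of 23459 rows).

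Counts were analysed across all genes in R 4.3.3 with edgeR 4.0.16: filterByExpr (min.count 10, min.total.count 15), TMM scaling and the quasi-likelihood F test of OBF1 shRNA over control shRNA on all 6 libraries without a covariate, with Benjamini-Hochberg adjustment and a threshold of 0.05. Standard errors are the absolute log2 fold change over the root of its F statistic. CPM per kilobase used the deposited lengths. Ratios of gene pairs were compared by exact permutation (scipy 1.17.1). Members had from 317 (BCL3) to 8563 (NFKB2) counts in a library, and libraries 29569281 to 32612429 in all.

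The members, pathway lists, markers and tests were chosen with earlier results of these data known. Genes named were the members, POU2AF1, the 3 smallest p-values of each pathway list and, for members changed at least 2-fold, the gene with the nearest profile among those averaging 5 CPM or more (on log2 of CPM + 0.5); others were named after their values were seen, and marker and handling genes as examples or counts of their lists. Listed genes that reached the filter's cutoff (0.323 CPM) in no library of 1 group were tallied apart. Alternatives were DESeq2 1.42.0, limma-voom (limma 3.58.1), RLE or upper-quartile factors or none (library sizes alone), no filter or 1 CPM in 3 libraries, a block for the replicate number, and each library left out in turn. For ratios and levels they were no length scaling and 0.5 CPM added. Chi-square per degree of freedom between libraries of 1 group was 1.84 to 3.17, more than sampling noise alone, so all 6 were counted as separate libraries. Some listed genes are counted in their lists and not reported here by name.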

Additional observations from a re-analysis of the deposited data

How the results depend on the processing

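Every member kept its direction and its call in all 14 alternative fits, 140 values in all, and the largest adjusted p of any member was 0.00629, for NFKBIB without OBF1 shRNA replicate 1. The replicate numbers were not shown to pair the samples: deviations of same-numbered libraries from their group means correlated at 0.03, -0.17 and -0.11. With the replicate number as a block the members stayed at 8 higher and 2 lower, and over all tested genes 8759 were called, against 9058 without it. Leaving out 1 library gave 8632 to 8974 called genes, and 8 higher and 2 lower members each time. The ratios between gene pairs kept their direction with each library left out, without length scaling and with 0.5 CPM added; leaving out 1 library gave log2 differences of 0.29 to 0.36 for NFKB2 over NFKB1, 0.67 to 0.76 for RELB over RELA and 0.65 to 0.83 for REL over RELA. Among the IκB destruction genes, 5 were lower with library sizes alone; CUL1 and UBE2D2 were added. FBXW11 lost its call with the replicate block (edgeR adjusted p = 0.0521) and in 3 of the 6 fits that left out 1 library (0.0553 to 0.135). Ranked by CPM without length, which favours long genes, 4 of the 10 members in OBF1 shRNA and 2 in control shRNA libraries kept their rank. Small calls in the lists depended on the setting: IRF1 (log2 fold change 0.09, edgeR adjusted p = 0.0434) and IKBKB (-0.10, edgeR adjusted p = 0.0284) lost theirs with DESeq2 (adjusted p = 0.0729 and 0.0963). IRF1 also lost its call with upper-quartile factors, the replicate block and several libraries left out in turn. With library sizes alone it was not called, at a log2 fold change of -0.02. IKBKB also lost its call without the filter and with several libraries left out in turn. These 5 genes were named after their values were seen.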

Other observations

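Other genes with profiles nearest to those of the members that changed at least 2-fold were looked up among 9597 genes outside the family with a mean of at least 5 CPM, by the root mean square distance of log2 values over the 6 libraries, centred on the control shRNA mean. With only 2 groups, such likeness mainly reflects a like fold change. NFKB1 was nearest to IKZF1, encoding the lymphoid factor Ikaros (distance 0.0180), which was at 309 ± 7.47 CPM in OBF1 shRNA and 150.3 ± 3.20 CPM in control shRNA libraries (SD, n = 3 each). NFKB2 was nearest to FDPS, an enzyme of isoprenoid synthesis (distance 0.0220), at 314 ± 5.56 CPM in OBF1 shRNA and 122 ± 4.18 CPM in control shRNA libraries. NFKBIA was nearest to HLA-DRA, the MHC class II α chain (distance 0.0290), at 4291 ± 81.7 CPM in OBF1 shRNA and 1492 ± 44.1 CPM in control shRNA libraries. NFKBIE was nearest to CTSH, a lysosomal protease (distance 0.0196), at 226 ± 3.86 CPM in OBF1 shRNA and 91.0 ± 3.44 CPM in control shRNA libraries.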
